A study of Caenorhabditis elegans with 4 samples.

Results

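The 10 genes described here encode the superoxide dismutases (sod-1 to sod-5), the catalases (ctl-1 to ctl-3) and the metallothioneins (mtl-1 and mtl-2) of Caenorhabditis elegans. They were taken by their WormBase symbols from the 46643 rows of the deposited gene count table, and all 10 were found. RNA was taken from whole wild-type (N2) animals at adult day 1. These animals had been grown from synchronised L1 larvae at 25 °C on plates seeded with OP50 bacteria. Ketamine at 2.5 mM was present in the plates of 2 libraries (ketamine 1 and ketamine 2). The plates of the other 2 (control 1 and control 2, 0 mM) carried the vehicle, M9 buffer. The study reported slower development and smaller broods in ketamine-treated animals. How closely the sequenced groups were matched in stage, beyond the label of adult day 1, is not given.

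Superoxide dismutases turn superoxide, a by-product of respiration, into hydrogen peroxide and oxygen. Catalases then break hydrogen peroxide down to water and oxygen. Metallothioneins are small cysteine-rich proteins that bind zinc, copper and cadmium. In C. elegans sod-3 and mtl-1 are widely used readouts of DAF-16, the FOXO transcription factor held back by insulin signalling, and both metallothioneins respond to cadmium in the intestine. The question asked here is how these genes differed between animals grown with ketamine and with the vehicle.

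Counts summed to between 29192110 and 43419202 per library. Control 1 stood apart from the rest. Genes were tested where 2 or more libraries held 10 or more counts, which left 15793 genes. Over these, CPM (counts relative to the TMM-scaled library size, on a log2 scale) of control 1 correlated at 0.961 to 0.969 with the other libraries, which correlated at 0.986 to 0.994 among themselves. Such values describe the libraries only, as genes are no replicates. Markers of intestine, yolk, oocyte and eggshell, sperm, muscle and neurons were all counted, and 0 of them were at 0 in every library. Since whole animals were used, fewer cells of a type and less RNA per cell cannot be told apart. Nothing in the labels says that the libraries came from separate cultures, so p-values measure the spread between these libraries, which may be technical.

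None of the 10 genes was called different between ketamine and control. A gene was called where edgeR's quasi-likelihood test gave an FDR (the Benjamini-Hochberg adjusted p) below 0.05 together with a 2-fold or larger difference. By this measure 0 of the 10 were higher and 0 were lower. Over all tested genes 0.095% were called higher and 0% lower. With the raw p of edgeR in place of the FDR the number was again 0 of 10, against 2.05% of all genes higher and 1.63% lower. DESeq2 also called 0 of the 10, against 0.649% of its genes higher and 0.145% lower. With 2 libraries against 2, an exact permutation test of a single gene cannot give a two-sided p below 0.333.

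In 5 of the 10 genes, namely mtl-1, mtl-2, sod-1, sod-3 and sod-5, both ketamine libraries lay above both controls in CPM. Over all tested genes 23.1% did so. In 0 of the 10 did both ketamine libraries lie below both controls, as 20.6% of all genes did. The log2 change was above 0 for 8 of the 10 and for 49.5% of all tested genes. The median of the 10 was 0.16, beside -0.0051 over all tested genes. The difference between the group means was wider than the larger difference within a group for sod-1, mtl-2 and sod-5 (3 of 10 genes). This held for 25.1% of all genes with counts in every library. Each of these counts includes sod-5, which passed the count filter only through the ketamine libraries. That it was tested at all thus depended on its higher counts with ketamine.

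**Figure D1:**
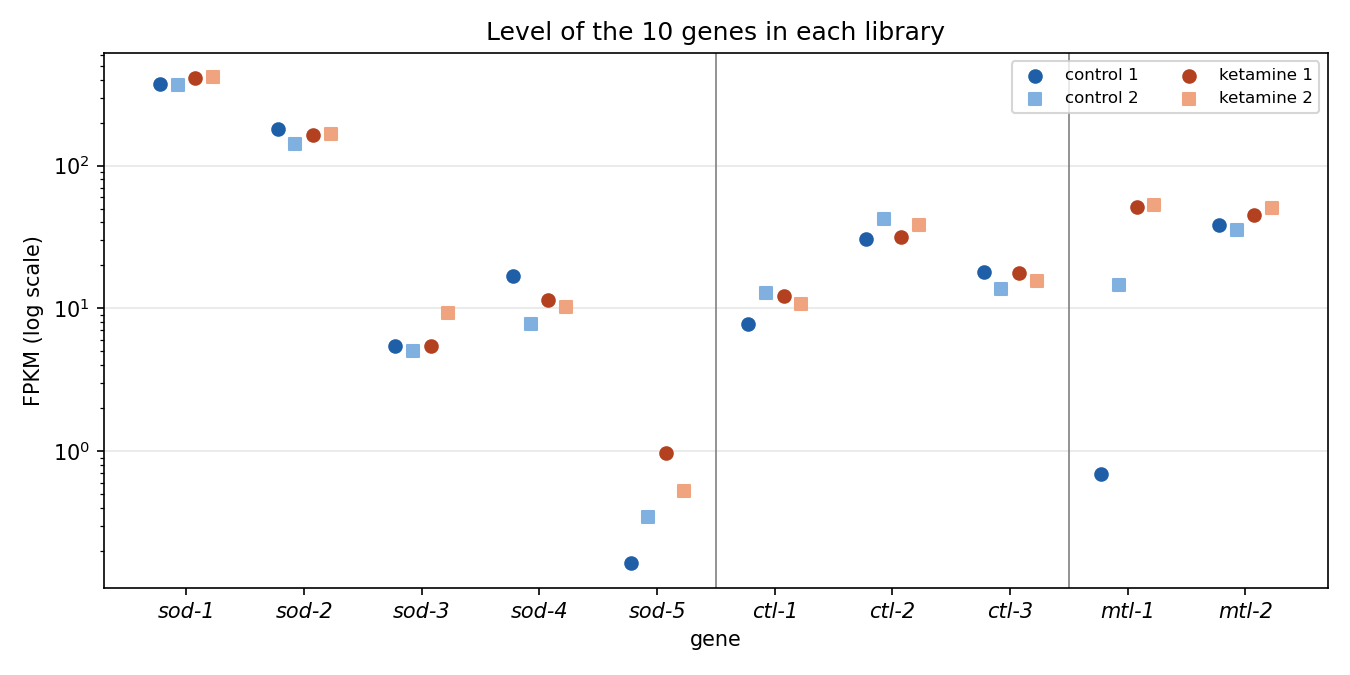
Level of each gene in FPKM (log axis) in control 1 and 2 (blue) and ketamine 1 and 2 (red), with 1 point per library. sod-1 is highest in every library, from 365 to 416 FPKM, and mtl-1 spans the widest range, from 0.687 in control 1 to 53.3 in ketamine 2.

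Levels can be compared between genes in FPKM, the fragment count scaled by the authors to gene length and library size. sod-1 and sod-2 held the 2 highest places in all 4 libraries, and sod-5 the lowest. Among the dismutases sod-1 made up 65.0% to 70.1% of the summed FPKM and sod-2 27.4% to 31.1%. The places between them were held by the metallothioneins, the catalases, sod-3 and sod-4. The largest change of place was that of mtl-1, which stood at place 9 in control 1, at place 5 in control 2 and at place 3 in both ketamine libraries. In both ketamine libraries mtl-1 was slightly above mtl-2, whereas in both controls it was below mtl-2.

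mtl-1 (K11G9.6, chromosome V, 6691369 to 6691863, minus strand, WBcel235) showed the largest difference of the 10 genes. It was counted 12 times in control 1 and 194 times in control 2, but 659 and 584 times in ketamine 1 and 2. Both ketamine libraries were therefore high and similar, control 2 was intermediate, and control 1 held few reads (95% exact Poisson interval of its count 6.20 to 20.96, counting error only). Scaled to library size, mtl-1 was at 0.260 CPM in control 1 and 5.54 in control 2, against 19.3 and 20.2 in ketamine 1 and 2. The groups did not overlap, and the lower ketamine library was 3.49-fold above the higher control.

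The fitted log2 change of mtl-1, ketamine over control, was 2.78 (standard error, SE, 1.23, 95% interval -0.38 to 5.95, FDR 0.748 by edgeR). The difference between the controls was larger than that between the group means. Control 2 was 21.3-fold above control 1, while the ketamine libraries differed by 0.064 on the log2 scale. On log2(CPM + 0.5) the controls differed by 2.99 in mtl-1. Of the 15793 tested genes, 41 (mtl-1 included) were at least that much higher in control 2, and 0.279% differed between the controls by at least that much in either direction.

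mtl-1 was therefore not called with all 4 libraries, and its log2 change depended on which controls were used. Without control 1 its log2 change was 1.81 (FDR 0.00463 by edgeR), and 0.644% of all genes were called higher in that fit. Without control 2 it was 6.23 (FDR 2.55e-05), where 10.9% of all genes were called higher. Each of these fits has 1 control library, which is assumed to vary like the ketamine libraries, so that the difference between the controls no longer enters. Leaving out ketamine 1 or ketamine 2 gave 2.81 and 2.75, and mtl-1 was not called, with 0.0905% and 0.077% of all genes called higher. In DESeq2 it was 2.77 with an FDR of 0.998. Limma on the deposited levels gave 3.37 on log2(FPKM + 1) and 3.94 on log2(FPKM + 0.1), with a raw p of 0.0281 and 0.0421 and an FDR of 0.699 and 0.702. With no count filter the edgeR value was 2.75 with a raw p of 0.00698 in place of 0.0732, and an FDR of 0.434.

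**Figure D2:**
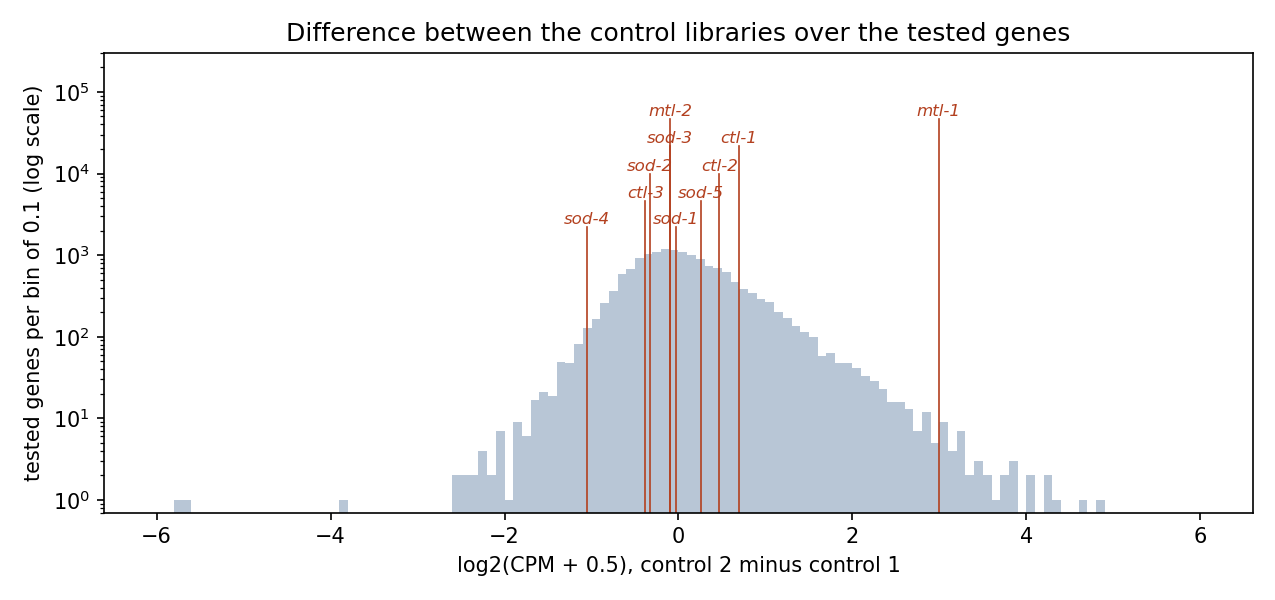
Histogram of the difference between control 2 and control 1 on log2(CPM + 0.5) over the 15793 tested genes (log count axis, bins of 0.1), with a line at each of the 10 genes. mtl-1, at 2.99, lies far in the upper tail, and the other 9 genes lie between -1.06 and 0.70.

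mtl-2 (T08G5.10, chromosome V, 14018272 to 14018643, minus strand), the second metallothionein, differed little between libraries of the same group. Its level was 12.1 CPM in control 1 and 11.3 in control 2, against 14.4 and 16 in ketamine 1 and 2. Both ketamine libraries were above both controls, by 1.19-fold to 1.41-fold depending on the libraries compared. The log2 change was 0.37 (SE 0.22, 95% interval -0.18 to 0.93, FDR 0.748 by edgeR), so that a change of 2-fold or more lay outside the interval. Leaving out any library kept it between 0.30 and 0.45.

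Together the metallothioneins summed to 38.8 FPKM in control 1 and 50.1 in control 2, and to 96.2 in ketamine 1 and 103 in ketamine 2. mtl-1 made up 1.77% of this sum in control 1 and 29.1% in control 2, against 53.0% and 51.5% in ketamine 1 and 2. Most of the difference between the groups in the summed level thus lay in mtl-1. The sum itself was not tested.

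**Figure D3:**
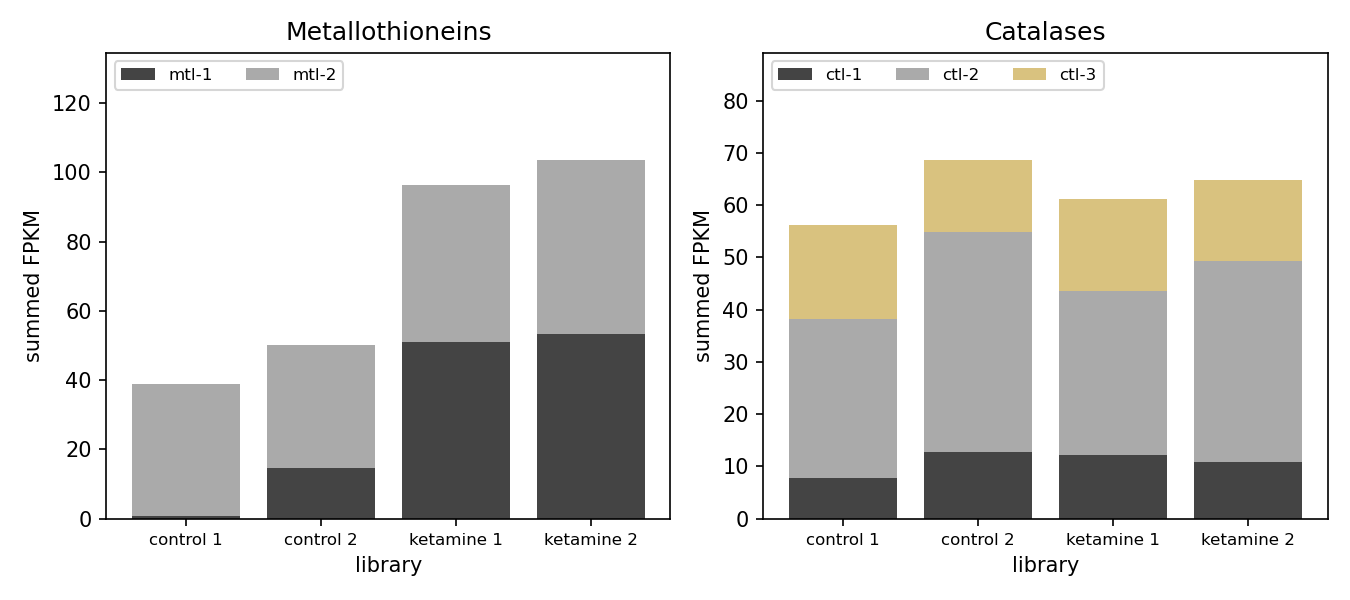
Summed FPKM of the metallothioneins (left) and of the catalases (right) in each library, stacked by gene. The metallothionein sum is 38.8 and 50.1 without ketamine and 96.2 and 103 with it, while the catalase sum lies between 56.1 and 68.6 in all 4 libraries with no separation of the groups.

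sod-1 (C15F1.7, chromosome II, 6972712 to 6973892, minus strand) encodes the main cytosolic copper/zinc superoxide dismutase and was the most abundant of the 10 genes. It was at 277 CPM in control 1 and 271 in control 2, against 306 and 308 in ketamine 1 and 2. The ketamine libraries lay above the controls by a margin that was wider than the spread within either group. The difference was small, with a log2 change of 0.16 (SE 0.14, 95% interval -0.20 to 0.53, FDR 0.751 by edgeR). It ranged from 0.15 to 0.17 when each library was left out. Its upper bound corresponds to 1.44-fold.

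sod-5 (ZK430.3, chromosome II, 4417683 to 4419131, plus strand) encodes a second cytosolic copper/zinc enzyme, known for higher expression in dauer larvae. Its reads numbered 5 in control 1 and 8 in control 2, and 22 and 10 in the ketamine libraries 1 and 2. Both ketamine libraries were above both controls in CPM, but these values rest on few reads. The 95% exact Poisson interval was 3.45 to 15.8 for the count in control 2 and 4.8 to 18.4 for that in ketamine 2, and the 2 overlap. The log2 change was 1.58 (SE 0.66, 95% interval -0.11 to 3.28, FDR 0.748 by edgeR). Leaving out control 1 gave 1.09 and leaving out control 2 gave 2.17. Limma gave 0.47 on log2(FPKM + 1), with a raw p of 0.0502 and an FDR of 0.699. On log2(FPKM + 0.1) limma gave 1.26, with a raw p of 0.0479 and an FDR of 0.702. sod-5 passed the count filter only through the ketamine libraries, and without either of them it no longer passed. That sod-5 was tested at all thus depended on its higher counts with ketamine. With no count filter its log2 change was 1.55, with a raw p of 0.0668 and an FDR of 0.800 by edgeR.

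sod-4 (F55H2.1, chromosome III, 9498158 to 9500204, minus strand) encodes the secreted and membrane-bound copper/zinc form. Its level was 17.8 CPM in control 1 and 8.32 in control 2, against 12.2 and 10.8 in ketamine 1 and 2. The ketamine libraries thus lay between the controls. The log2 change was -0.19 (SE 0.41, 95% interval -1.24 to 0.87, FDR 0.888 by edgeR), and it turned to 0.44 without control 1.

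sod-2 (F10D11.1, chromosome I, 8434489 to 8435810, plus strand) and sod-3 (C08A9.1, chromosome X, 17092718 to 17094223, plus strand) encode the manganese superoxide dismutases of the mitochondrial matrix. sod-2 was at 158 CPM in control 1 and 126 in control 2, against 145 and 146 in ketamine 1 and 2. Here too the ketamine libraries lay between the controls. Its log2 change was 0.035 (SE 0.17, 95% interval -0.40 to 0.47, FDR 0.952 by edgeR), and it was -0.12 without control 2.

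sod-3 was at 4.56 CPM in control 1 and 4.23 in control 2, against 4.61 and 7.79 in ketamine 1 and 2. Ketamine 2 alone was high, and ketamine 1 was within 1.01-fold of control 1. The log2 change was 0.49 (SE 0.34, 95% interval -0.39 to 1.38, FDR 0.748 by edgeR). It was 0.072 without ketamine 2 and 0.83 without ketamine 1. The ketamine libraries differed by 0.76 on the log2 scale in sod-3. Over the tested genes, 4.10% differed between them by at least as much on log2(CPM + 0.5). In FPKM sod-3 stood at 5.01 to 9.24 and sod-2 at 143 to 180, so sod-2 was the more abundant manganese enzyme in all 4 libraries.

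**Figure D4:**
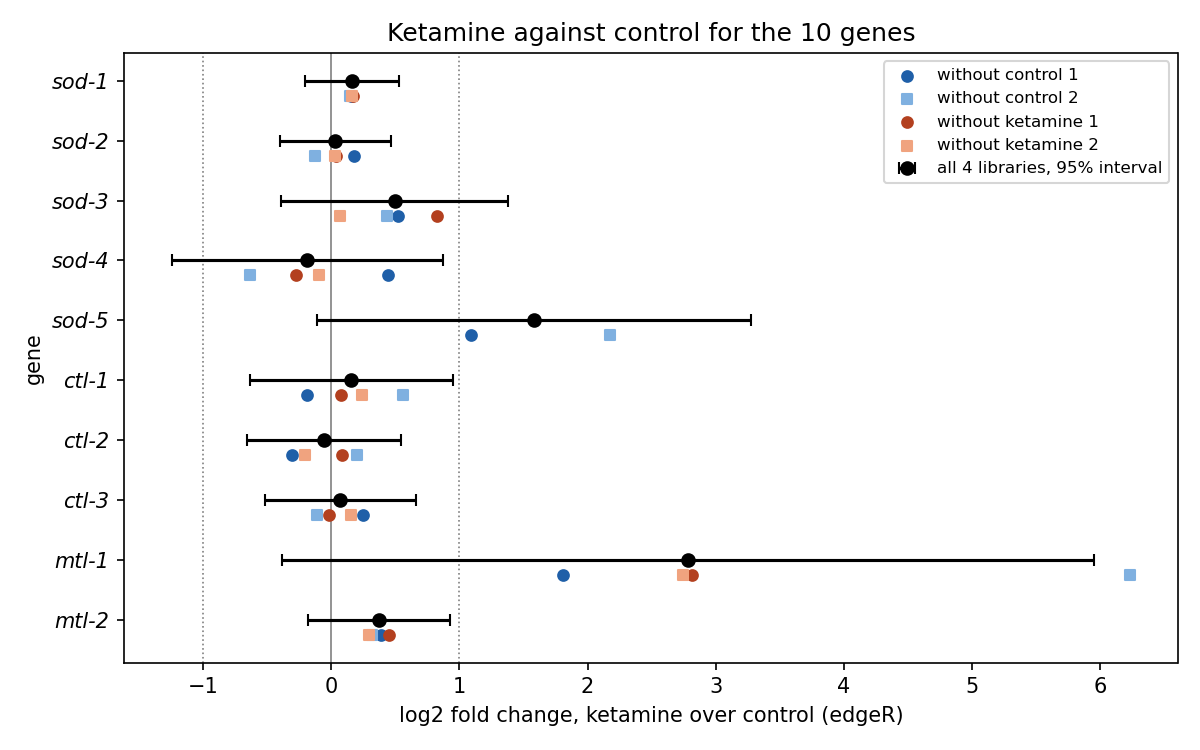
log2 change of ketamine over control for each gene from edgeR, with its 95% interval (black), and the values with each library left out (coloured points). Dotted lines mark a 2-fold change. The interval of every gene crosses 0, and that of mtl-1 is the widest, from -0.38 to 5.95.

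The catalases lie next to each other on the minus strand of chromosome II. ctl-2 (Y54G11A.5, 14299553 to 14302050) encodes the peroxisomal catalase. It is followed after 1561 bases by ctl-1 (Y54G11A.6, 14303612 to 14306293), which encodes the cytosolic form, and after a further 1560 bases by ctl-3 (Y54G11A.13, 14307854 to 14310779). These are tandem copies with closely similar coding sequences. How the counting treated reads that match several genes is not given in the sources used here, so the split of reads among the catalases is uncertain.

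Counted as 1 feature, the catalases were at 91.0 CPM in control 1 and 112 in control 2, against 99.0 and 105 in ketamine 1 and 2. Both ketamine libraries lay between the controls. The log2 change of the summed counts was 0.013 (SE 0.17, 95% interval -0.42 to 0.45, FDR 0.981 by edgeR). Either a 2-fold rise or a 2-fold fall was outside this interval. The sign turned without control 1, at -0.16, and without ketamine 2, at -0.031.

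The single catalase genes overlapped between the groups as well. ctl-2, the most abundant, was at 50.4 CPM in control 1 and 70.0 in control 2, against 52.1 and 63.8 in ketamine 1 and 2, a log2 change of -0.055 (SE 0.23, FDR 0.943 by edgeR). ctl-1 was at 12.1, 19.95, 18.9 and 16.9 CPM in the same order, a log2 change of 0.16 (SE 0.31, FDR 0.871). ctl-3 was at 28.5, 21.7, 28.0 and 24.8 CPM, a log2 change of 0.072 (SE 0.23, FDR 0.924). Control 1 held the lowest value for ctl-1 and ctl-2 and the highest for ctl-3.

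The mix of catalases differed between libraries of the same group. ctl-3 took 31.3% of the catalase counts in control 1 (95% Wilson interval 29.9% to 32.7%) and 19.5% in control 2 (18.3% to 20.7%). Under ketamine it took 28.3% (26.8% to 29.8%) in ketamine 1 and 23.5% (22.1% to 25.1%) in ketamine 2. For ctl-3 the ketamine libraries thus fell inside the range of the controls. For ctl-1 the share was 13.3% and 17.9% in controls 1 and 2 and 19.1% and 15.99% in ketamine 1 and 2, so that ketamine 1 alone was above both controls. For ctl-2 it was 55.4% and 62.7% against 52.6% and 60.5%, with ketamine 1 alone below both controls. In each of the catalases at least 1 ketamine library lay between the controls. The intervals cover counting error only.

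Of the 10 genes, 4 overlap a gene on the opposite strand in the Ensembl annotation of WBcel235. sod-1 overlaps the non-coding gene C15F1.13. The whole of sod-2 lies within the span of dpt-1, while sod-3 lies across C08A9.3 and ctl-2 across the end of Y54G11A.7. The library kit was stranded, but whether the counting used strand is not given in the sources used here, so reads of these partners cannot be told apart from those of the 4 genes. mtl-1, mtl-2, sod-4, sod-5, ctl-1 and ctl-3 overlap no other annotated gene.

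Other enzymes that remove peroxides were compared as a list of 11 peroxiredoxins and glutathione peroxidases. All 11 were tested, 0 were called in either direction by edgeR or DESeq2, and 0 passed with the raw p of edgeR. Their median log2 change was -0.14, and 4 of the 11 had both ketamine libraries below both controls, as 20.6% of all tested genes did. The lowest was gpx-3, a glutathione peroxidase, at -0.97 (SE 0.32, FDR 0.748 by edgeR). The highest was prdx-2, the main cytosolic peroxiredoxin, at 0.67 (SE 0.88). The counts of prdx-2 were 3748 in control 1, against 21348 in control 2 and 18271 and 16193 with ketamine. Control 1 alone was low. The log2 change of prdx-2 was -0.18 without control 1 and 2.75 without control 2.

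Of the 17 genes of the thioredoxin and glutathione systems, 15 were tested and 0 were called by edgeR or DESeq2. With the raw p of edgeR the number was also 0. Their log2 changes had a median of -0.12. They ranged from -0.70 for msra-1, which encodes a methionine sulfoxide reductase, to 0.87 for the thioredoxin gene trx-4. trx-4 was another gene in which control 1 was low, with 258 counts against 914 to 935 in the other libraries. Its log2 change was 0.12 without control 1 and 2.40 without control 2.

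Genes of metal handling bear on the metallothioneins. Of 26 such genes 25 were matched and 21 tested, and edgeR called 0 of them in either direction. Their median log2 change was -0.11, with 5 of the 21 having both ketamine libraries above both controls and 9 having both below, beside 23.1% and 20.6% of all tested genes. With the raw p in place of the FDR, 2 were higher and 0 lower, beside 2.05% and 1.63% of all genes. These were cdr-1 and cdr-4, members of a family named for its response to cadmium. The family went both ways, since cdr-6 and cdr-7 had log2 changes of -0.44 and -0.56, with both ketamine libraries below both controls, and cdr-2 one of 0.83 with both above. The counts of cdr-4 were 3035 and 1581 without ketamine and 3955 and 3724 with it, which is 55.5 ± 14.6 CPM (SD, n = 2) against 123 ± 9.08 CPM (SD, n = 2). Its log2 change was 1.14 (SE 0.23, FDR 0.648 by edgeR), and DESeq2 called it with an FDR of 0.0498. It was 1.41 without control 1 and 0.89 without control 2. For cdr-1 the counts were 36 and 20 without ketamine and 44 and 46 with it, a log2 change of 1.08 (SE 0.39, FDR 0.748 by edgeR). The genes numr-1 and numr-2, which respond to cadmium, had too few counts to be tested.

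In the insulin and FOXO pathway 9 of 9 genes were tested, 0 were called by edgeR or DESeq2, and 0 passed with the raw p of edgeR. The median log2 change was 0.061. daf-16, the FOXO factor itself, had a log2 change of 0.054 (SE 0.16), which was -0.087 without control 1 and 0.18 without control 2. The range of the list ran from -0.16 for the kinase gene sgk-1 to 0.60 for pdk-1. The counts of pdk-1 were low in control 1 alone, at 354 against 599 to 629 in the others, and its log2 change was 0.079 without control 1 and 1.33 without control 2. Of 11 other regulators of stress and of the intestine, all were tested and 0 were called by edgeR or DESeq2 or passed with the raw p of edgeR, with a median of 0.15. elt-2, the GATA factor of the intestine that is needed for metallothionein expression, had a log2 change of 0.29 (SE 0.27), which was 0.032 without control 1 and 0.55 without control 2. The 11 genes of peroxisome import, on which ctl-2 depends, had a median of -0.23, with 0 called by either tool, 0 with the raw p of edgeR, and a range from -0.44 for prx-5 to 0.39 for prx-2. The latter had 26 to 48 counts, and its log2 change was -0.16 without control 1 and 1.15 without control 2.

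Markers of tissue and stage differed between libraries beside these results. In CPM, the 9 intestine markers summed to 1933 in control 1 and 3202 in control 2, against 3468 and 3560 with ketamine, with 0 of the 9 called by edgeR. Of these, 1 passed with the raw p and was called by DESeq2, namely cpr-1, which encodes a cathepsin B-like protease. Its log2 change was 1.98 (SE 0.37, FDR 0.559 in edgeR and 0.000173 in DESeq2). Over all genes 2.05% were higher with the raw p of edgeR, and DESeq2 called 0.649% of its genes higher. The intestine markers did not move as 1 group. Both ketamine libraries were above both controls in 3 of the 9, beside 23.1% of all tested genes. They were below both controls in 2, ifb-2 (log2 change -0.35) and vha-6 (-0.32), beside 20.6% of all tested genes. The median of the 9 was 0.29, with 0.023 without control 1 and 0.48 without control 2.

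The 10 larval cuticle and molting markers summed to 33.1 CPM in control 1 and 75.9 in control 2, against 152 and 87.1 with ketamine. Its rol, sqt, dpy and bli collagens are among the genes that the study reported as higher with ketamine from these same data. The counts given for this list are therefore not independent of that report. The log2 change was above 0 in all 10, beside 49.5% of all tested genes. In 8 of the 10 both ketamine libraries were above both controls, beside 23.1% of all tested genes. The median of the 10 was 1.45, and 0.78 to 2.11 with each library left out. With the raw p 3 of the 10 were higher, beside 2.05% of all genes. These were rol-6, bli-2 and qua-1, with log2 changes of 1.54, 1.41 and 1.12 (FDR 0.748 each by edgeR). Control 1 was lowest in the intestine and the larval sums, as it was in mtl-1. It was also lowest in the yolk, the oocyte and eggshell, and the muscle sums given below. In the sperm and the neuron sums control 1 was highest.

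The 10 oocyte and eggshell markers summed to 9138 CPM in control 1 and 12449.8 in control 2, against 14955 and 14699 with ketamine. Their median log2 change was 0.31, with 7 of the 10 having both ketamine libraries above both controls, beside 23.1% of all tested genes. The 10 sperm markers summed to 140 and 121 CPM in the controls, and to 86.7 and 69.3 with ketamine. Their median was -0.60, and in 7 of the 10 both ketamine libraries were below both controls, beside 20.6% of all tested genes. All of them except spe-11 are genes of the major sperm protein family. How reads that match several genes were counted is not given, so these genes may not be independent of each other. spe-11 was the highest of the list, with a log2 change of 0.25. With the raw p 1 of the 10 sperm markers was lower, beside 1.63% of all genes. This was the major sperm protein gene msp-49, at -1.15 (FDR 0.748 by edgeR).

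The 6 muscle markers summed to 2625 CPM in control 1 and 4546 in control 2, against 2751 and 2676 with ketamine, so that control 2 alone was high. Their median was -0.46, with -0.76 without control 1 and 0.015 without control 2. The 6 neuron markers had a median of -0.083, with sums of 292 to 325 CPM. The 6 yolk markers summed to 42802 and 76851 CPM in controls 1 and 2, with 65146 and 65033 under ketamine between these, and their median was -0.29. They went both ways. With the raw p 2 of the 6, vit-1 and vit-3, were lower, beside 1.63% of all genes. Their log2 changes were -1.18 and -1.03 (FDR 0.748 and 0.677 by edgeR). By contrast, vit-2 and vit-6 had values of 0.34 and 0.39 with overlapping groups. The part of tissue or stage in the values of mtl-1 was not tested.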

How the data were processed

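Total RNA of whole animals was made into stranded mRNA libraries. Per the labels and the study's methods, the authors used HISAT2 2.0.5 to align reads to WBcel235, ran StringTie 1.3.3b for assembly and counted with featureCounts 1.5.0-p3. The deposited counts are raw counts per gene, and the deposited FPKM values are scaled by the authors to gene length and library size. All per-sample columns were used. The WT columns were taken as the controls of the same number.

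Symbols came from RefSeq locus tags, and 1 of the 151 listed genes (cdr-5) was not matched. Coordinates are those of the deposited table, and overlaps with other genes were taken from Ensembl release 115. Counts were tested with edgeR 4.0.16 (quasi-likelihood, TMM, genes with 10 or more counts in 2 or more libraries, 15793 in all, no replicate block), with Benjamini-Hochberg adjustment over all tested genes. The standard error is the size of the log2 change over the root of its F statistic. Alternatives used DESeq2 1.42.0, limma 3.58.1 on log2(FPKM + 1) and log2(FPKM + 0.1), other scalings and count filters, a replicate block, and each library left out. R 4.3.3 and Python 3.11.15 were used, and the fits were tested on simulated data.

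All 10 genes are named. Of the other lists, the genes named passed a raw p under 0.05 and 2-fold in edgeR or form the ends of the range of their list. daf-16, elt-2, numr-1, numr-2, cdr-2, cdr-6, cdr-7, vha-6 and vit-2 were named after their values were seen. The genes and lists were chosen with earlier results of these data known. The precision is limited by 2 libraries per group. Sequences were not analysed here.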

Additional observations from a re-analysis of the deposited data

How the results depend on the processing

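Of the 10 genes, 0 were called lower under any alternative run, and 0 were called higher except mtl-1 without control 1 or without control 2 (range over the libraries left out 0 to 1). Over all genes the number called higher was 15 and moved to 107 with DESeq2, 67 with no count filter, 34 with the replicate block, 24 with limma on log2(FPKM + 1), 323 at the raw p, and 12 to 1686 with each library left out. The number called lower was 0 and moved to 24, 6 and 258 with DESeq2, no count filter and the raw p, and to 0 to 659 with each library left out. Among listed genes other than the 10, the number called higher was 0, and it was 2 with DESeq2, 1 with no count filter, 6 at the raw p and 0 to 21 with each library left out. The number called lower was 0, and it was 3 at the raw p and 0 to 5 with each library left out. In the fits without a control, that difference between the controls no longer enters, by construction.

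Signs turned in genes close to 0. sod-2 was at -0.010 with total counts only and at -0.12 to 0.18 with each library left out. With each library left out, the log2 change was -0.63 to 0.44 for sod-4, -0.18 to 0.56 for ctl-1, -0.30 to 0.20 for ctl-2, -0.11 to 0.25 for ctl-3 and -0.16 to 0.17 for the summed catalases. The cause was not tested. The labels give a replicate number and do not say whether libraries of the same number were paired. The deviations of control 1 and ketamine 1 from their group means correlated at 0.058 over genes. With 2 libraries per group this value cannot decide whether they were paired. The replicate block called 0 of the 10 genes, and put mtl-1 at 3.75 with a raw p of 0.00564 and an FDR of 0.546 by edgeR. Counting non-overlap in FPKM, chosen after seeing the data, again gave 5 genes above and 0 below. Few reads limit sod-5, which had 5 to 22 counts.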
